A study of Mus musculus with 15 samples.

Results

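The genes described here encode the proteins of the cytosolic ribosome. They were chosen by name alone: a probe belonged to the set when its gene symbol was Rpl or Rps followed by a number, with or without a closing letter such as a, l, x or y, or was *Rplp0*, *Rplp1*, *Rplp2* or *Rpsa*. Of 29922 probes on the array, 41 met this rule, and they stood for 27 of 16675 gene symbols. The RefSeq gene table of the mouse (build GRCm38.p6) holds 85 protein-coding genes under the same rule, so the probes named in this way covered part of the ribosome. A gene symbol was given for 21020 probes of the array. Members among the unnamed probes, or under other names, were not searched for.

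The study compared retinas of mice with oxygen-induced retinopathy (OIR) with normal retinas on 2-colour whole-genome arrays, to follow gene expression while retinal vessels regress and regrow. All mice, OIR and normal alike, were wild-type C57BL/6J. OIR pups entered 75% oxygen at postnatal day 7 (P7), stayed there for 5 days and returned to room air at P12, whereas normal pups stayed in room air from birth. Each array set 1 pool of RNA against another, and a pool held 10 retinas of 5 mice from 1 litter. By the methods, the dyes were switched for all pairs. Names such as P8-O/P8-N give the ratio of OIR (O) over normal (N) retina at an age. There were 3 arrays for each of 5 comparisons, 15 in all. P8-O/P8-N was taken after 1 day in oxygen, P12-O/P12-N at the end of the oxygen period, and P13-O/P13-N 1 day after the pups had left it. P9-N/P30-N set young normal retina, whose vessels are still growing, against mature normal retina. P13-O/P9-N set OIR retina at P13 against the younger normal retina at P9. Whole neural retina was used, so a change in the share of a cell type and a change in RNA per cell cannot be told apart.

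A ribosome has a small subunit, which reads the mRNA, and a large subunit, which joins amino acids and releases the new chain through a tunnel. Most cells make the ribosomal proteins in nearly equal numbers, and growing or dividing cells make more of them. Their mRNAs carry a stretch of pyrimidines at the very start, the terminal oligopyrimidine or TOP tract, through which the mTOR pathway sets their translation. A few members have paralogs made mainly in certain tissues: *Rpl3l* replaces *Rpl3* in heart and skeletal muscle, and *Rps27l* is a p53-inducible copy of *Rps27*.

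Of the 41 probes, 30 probes of 21 genes could be tested in at least 1 comparison, 19 probes of 13 large-subunit genes and 11 probes of 8 small-subunit genes. Values were present on all 15 arrays for 26 probes. No value was given on any array for 9 probes of 7 genes, or 22% of the members, close to the 26.6% of all probes that were blank throughout. *Rpl35* and 1 probe of *Rpl37* had a value on 1 array only. *Rpl28*, *Rpl35*, *Rpl37*, *Rpl39l*, *Rplp0* and *Rpsa* therefore had no testable probe, and *Rpl5*, the reference gene of the real-time PCR in the study, had no probe under that symbol. RefSeq also lists 321 ribosomal protein pseudogenes in this genome, which resemble the transcripts, and the probe sequences were not used here, so a signal may include other copies.

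The 27 member genes lie on 14 chromosomes. The starts of 6 of them are shown, picked from the genes that were higher in young retina and lying on different chromosomes. *Rpl23* and other genes that were also higher are not shown. Each window holds 30 bases before and 30 after the annotated start of a transcript, 5′ to 3′ on the gene's strand, from RefSeq on GRCm38.p6. Capitals mark a pyrimidine run (CTTTCC in *Rps27*, CTCTTT in *Rps9*) or the motif CCGGAAG, which holds the core bound by ETS-family factors. Other stretches of pyrimidines, such as those in the windows of *Rpl31* and *Rps27l*, are not marked. Small-subunit genes come first, then the large subunit.
*Rps27*, chr3:90213619-90213678, minus strand: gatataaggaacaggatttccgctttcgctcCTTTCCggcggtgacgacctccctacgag
*Rps9*, chr7:3704011-3704070, plus strand: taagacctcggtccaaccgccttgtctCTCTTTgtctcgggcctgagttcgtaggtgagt
*Rps21*, chr2:180257349-180257408, plus strand: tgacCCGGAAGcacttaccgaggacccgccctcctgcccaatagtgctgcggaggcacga
*Rps27l*, chr9:66946056-66946115, plus strand: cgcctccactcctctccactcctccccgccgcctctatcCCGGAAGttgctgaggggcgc
*Rpl31*, chr1:39367821-39367880, plus strand: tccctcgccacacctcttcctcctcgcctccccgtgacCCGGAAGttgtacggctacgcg
*Rpl3l*, chr17:24727796-24727855, plus strand: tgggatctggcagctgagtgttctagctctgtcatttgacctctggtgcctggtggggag

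The window of *Rpl3l* held none of the marked strings. Whether these strings go with the size of a change was not tested. Promoter windows were given for 23 member genes. A pyrimidine run meant CTTTCC or the variants CTTTTC and CTCTTT on the gene's strand, from 25 bases before to 25 after a start. Such a run was found in 8 of the 23 (34.8%) and in 6.47% of 27025 genes. The 3 strings can overlap one another. Other pyrimidine stretches were not searched for, so this is not a count of genes with a TOP tract. CCGGAAG on either strand of the 300-base window was found in 10 of 23 (43.5%), beside 9.93% of all genes. AAGATGGC, the core of the YY1 motif, was found on either strand in 3 of 23 (13.0%), beside 3.19%. The strings were chosen after the sequences had been seen, and a match is a description of the letters only.

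The values are the log2 ratios deposited by the authors, with P9-N/P30-N inverted so that a positive value means more in the young retina. The number of values on an array ranged from 12008 to 21189. Over all probes, the 3 arrays of P9-N/P30-N correlated at 0.83 to 0.90, those of P13-O/P9-N at 0.42 to 0.61, those of P12-O/P12-N at 0.34 to 0.52, those of P13-O/P13-N at 0.04 to 0.46, and those of P8-O/P8-N at -0.20 to 0.21. On P8-O/P8-N replicate 1, 5 members lay below -0.5, more than on the other 2 arrays of that comparison, and 3 of these probes fell to about -1 or lower. A probe was called higher or lower when its mean ratio differed from 0 at an adjusted p under 0.05 in limma, a linear model fitted to all probes and all 15 arrays together. The p-values rest on the spread of a probe within comparisons, estimated jointly over all 15 arrays. That spread takes in differences between pools of different litters and between arrays. Any pool used in more than 1 comparison entered the model as if it were independent.

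**Figure D1:**
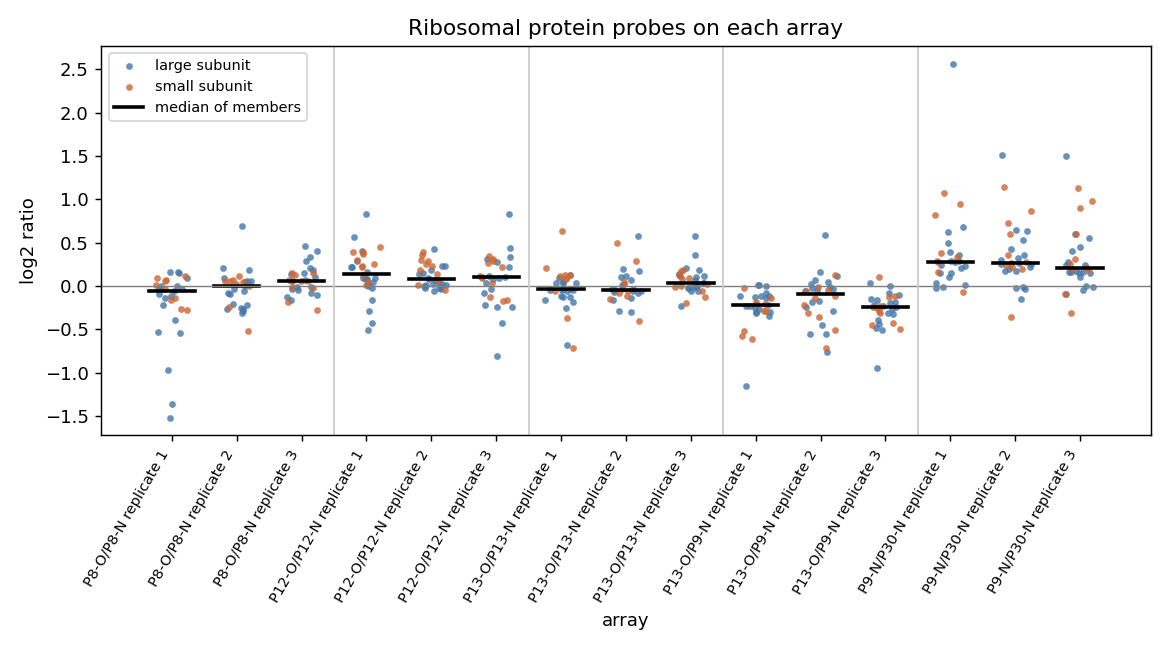
Log2 ratio of each tested ribosomal protein probe (points; blue, large subunit; orange, small subunit) on each of the 15 arrays, with the median over members as a black bar. The medians are 0.28, 0.26 and 0.20 on the P9-N/P30-N arrays and -0.22, -0.09 and -0.25 on the P13-O/P9-N arrays.

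Of the 21 ribosomal protein genes tested, 14 were higher in young than in mature normal retina. In P9-N/P30-N, 17 of 30 member probes, standing for these genes, were called higher and 0 lower, and 4 of the other 13 probes had a mean below 0. Over all 13818 probes tested, 17.5% were called higher and 16.2% lower. The member median was 0.22 on the log2 scale (1.17-fold), beside 0.01 for all probes, and the median on the single arrays was 0.28, 0.26 and 0.20. With a mean ratio of at least 1.5 as well, 6 members were higher and 0 lower, beside 5.64% and 6.4% of all probes. In all, 23 of the 30 probes (76.7%) were above 0 on every array with a value, beside 35% of all probes. The small subunit had 8 of 11 probes called, with a median of 0.27, and the large subunit 9 of 19, with a median of 0.20. This difference between subunits was not tested. Leaving out replicate 1, 2 or 3 gave 10, 10 and 11 members called higher. SAM, the permutation method used in the study, called 9 of 28 members (32.1%), beside 22.6% of all probes in either direction, and limma called 9 with the arrays scaled to equal spread.

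The 2 highest ratios were those of *Rpl3l* and *Rps27l*. *Rpl3l* was 2.57, 1.51 and 1.5 on replicates 1, 2 and 3, a mean of 1.86 (SE 0.21, 3.63-fold, adjusted p = 1.19e-05), which ranked 29th from the top of the 13818 probes. *Rps27l* was 1.08, 1.14 and 1.14, a mean of 1.12 (SE 0.066, 2.17-fold, adjusted p = 3.62e-08). The arrays of *Rps27l* lay close together, whereas replicate 1 of *Rpl3l* stood well above the other 2. The parent gene *Rps27*, a zinc-finger protein of the small subunit, was 0.33, 0.27 and 0.31 (mean 0.31, SE 0.062, adjusted p = 0.0017). Both members of this pair were thus higher at P9, the paralog by more on the ratio scale, and the difference between them was not tested because ratios of different probes are not on a common scale. *Rpl3* itself was not among the member symbols, and *Rps4y2*, a symbol now replaced by *Rps4l*, was 0.22 and 0.21 on 2 arrays and blank on replicate 1, with no call (adjusted p = 0.39).

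Among the other proteins of the small subunit, *Rps9*, whose bacterial counterpart affects the accuracy of decoding, gave the clearest rise. Its probe mMR031006 was 0.81, 0.87 and 0.90 (mean 0.86, SE 0.070, 1.82-fold, adjusted p = 5.78e-07), and its second probe, mMC025454, was 0.95, 0.60 and 0.60 (mean 0.71, SE 0.18, adjusted p = 0.0085). Both probes were above 0 on every array. *Rps24*, needed for processing of the ribosomal RNA precursor, was 0.38, 0.72 and 0.98 (mean 0.69, SE 0.13, adjusted p = 0.00097). *Rps21* was 0.27, 0.27 and 0.26 (mean 0.27, SE 0.057, adjusted p = 0.0026). The *Rps21* arrays were nearly equal, while those of *Rps24* were spread widely. *Rps3*, which lines the entry channel of the mRNA, was called with both probes, at 0.20 (SE 0.061, adjusted p = 0.020) and 0.22 (SE 0.080, adjusted p = 0.046), and was above 0 on every array. The exception was *Rps19*, the gene most often mutated in Diamond-Blackfan anaemia in humans. Its probe mMC015017 was blank on replicate 1 and -0.36 and -0.31 on the others, and its probe mMR030062 was -0.07, 0.36 and -0.09. Neither was called, and the 2 probes differed in sign.

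In the large subunit, 8 genes were higher. *Rpl41*, the shortest and most basic ribosomal protein, was 0.68, 0.53 and 0.55 (mean 0.59, SE 0.066, 1.5-fold, adjusted p = 1.25e-05). *Rpl31*, near the exit of the tunnel, was 0.50, 0.65 and 0.41 (mean 0.52, SE 0.089, adjusted p = 0.00045). These values lay apart from 0 on all arrays, with *Rpl41* the tighter of these genes. *Rpl22*, which most mouse tissues can do without but T-cell development cannot, had a mean of 0.31 (SE 0.087, adjusted p = 0.014). *Rpl21* (0.22, SE 0.071, adjusted p = 0.026), *Rpl7l1* (0.20 for probe mMC024831, adjusted p = 0.037) and *Rpl29* (0.19, adjusted p = 0.033) followed. *Rpl31* overlaps *Tbc1d8* and *Rps21* overlaps the microRNA gene *Mir3091* in the annotation. No annotated gene overlaps *Rpl3l*, *Rps9*, *Rps27*, *Rps27l* or *Rpl41*.

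The members that were not called differed in level and spread. *Rpl4*, which helps to form the narrowest part of the tunnel, was 0.24, 0.29 and 0.24 with probe mMC011900 and 0.29, 0.32 and 0.27 with probe mMR031137. All 6 values were close together, but the adjusted p was 0.14 and 0.11. The error of a probe is shared over all 15 arrays (SE 0.13 for both), and the P8-O/P8-N values of the 2 probes ran from -0.40 to 0.46 and from -0.55 to 0.41. *Rpl8*, at the peptidyl transferase centre, was 0.15, 0.20 and 0.15 (adjusted p = 0.051). Without P8-O/P8-N replicate 1 in the model, 20 in place of 17 members were called higher. *Rpl27a*, mutated in the sooty foot ataxia mouse, had means of -0.03 and -0.05 with its 2 probes, and *Rpl14* had 0.09. *Rpl38* had means of -0.04 (SE 0.25) and 0.20 (SE 0.15), the second close to the 0.20 of the called *Rps3* probe mMC019413 but with a wider error.

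**Figure D2:**
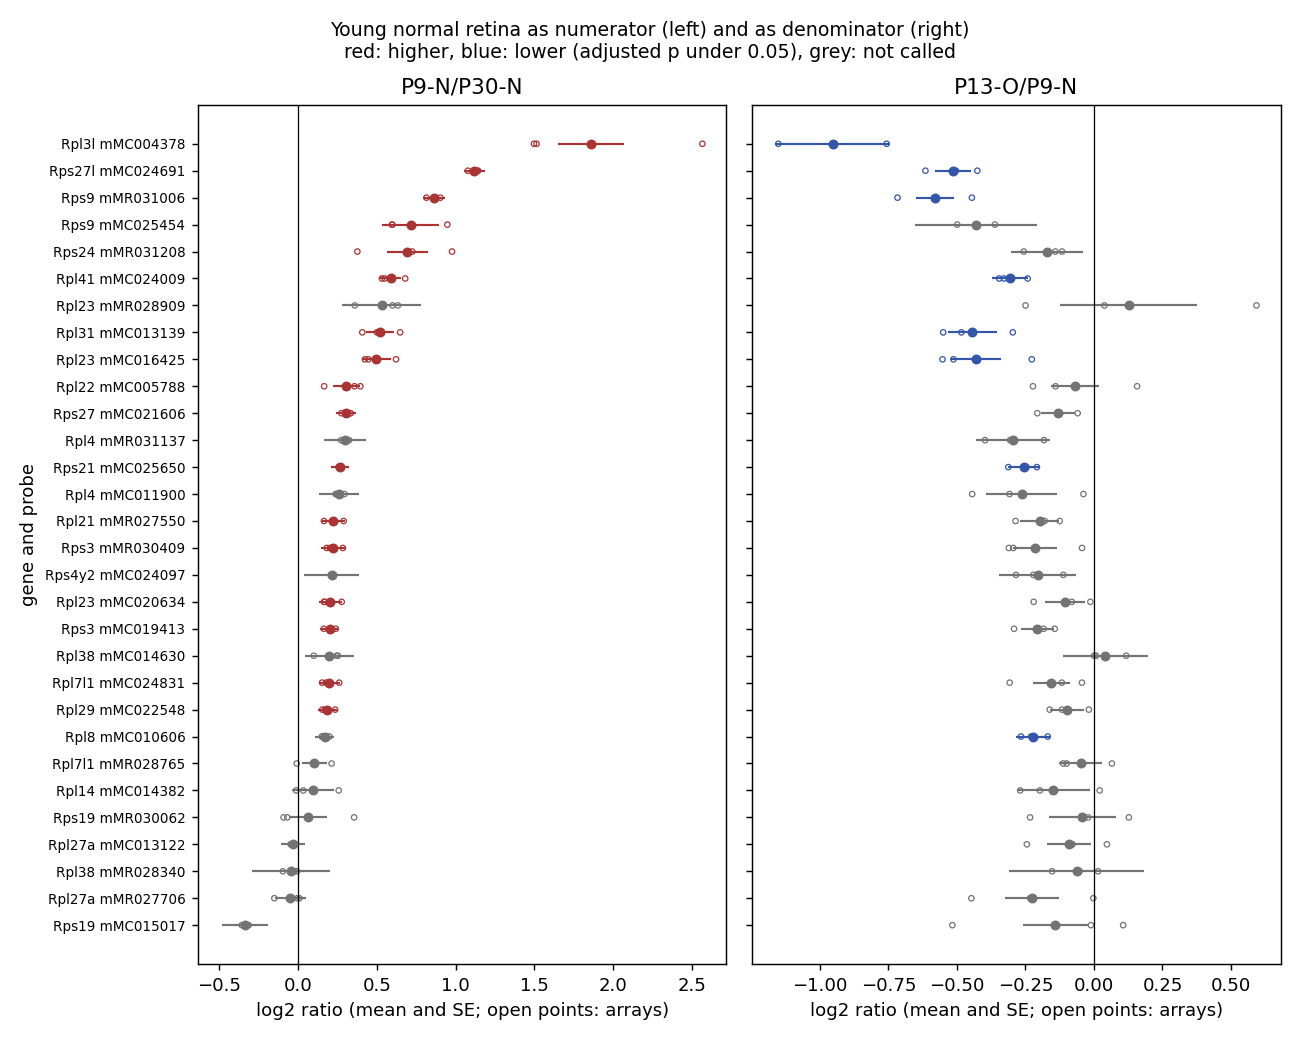
Mean log2 ratio and SE (filled points and bars) and single arrays (open points) of the 30 tested member probes in P9-N/P30-N (left) and P13-O/P9-N (right), in the same order from top to bottom. P9-N is the numerator on the left and the denominator on the right; 17 probes are called higher on the left and 8 lower on the right.

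With OIR retina at P13 set against normal retina at P9, 8 of 21 ribosomal protein genes were lower. In P13-O/P9-N, 0 of 30 probes were called higher and 8 lower, beside 4.55% and 3.96% of all 18848 probes. The median was -0.20, beside -0.02 for all probes, and -0.22, -0.09 and -0.25 on the single arrays. Below 0 on every array were 21 of 30 probes (70%), compared with 27% of all probes. The large subunit had 5 of 19 probes called and the small subunit 3 of 11. This comparison shares the P9-N retina with P9-N/P30-N and the P13-O retina with P13-O/P13-N, so its values stand beside theirs and are no separate evidence. The number of RNA samples given in the methods equals 3 pools for each of the 8 groups of retina, which leaves no pools for this comparison alone, but which pools were used again is not given in the sources used here. It also joins a difference in age to the difference in oxygen, and the effects of each cannot be told apart.

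*Rpl3l* was -1.15, -0.76 and -0.95 in P13-O/P9-N (mean -0.95, SE 0.21, 1.93-fold lower, adjusted p = 0.011). *Rps9* was -0.58, -0.72 and -0.45 with probe mMR031006 (mean -0.58, SE 0.070, 1.5-fold lower, adjusted p = 0.00014). *Rps27l* was -0.61, -0.50 and -0.43 (mean -0.51, SE 0.066, adjusted p = 0.00024). All 9 values lay well below 0, and these were the members with the largest drop. *Rpl31* (mean -0.44, adjusted p = 0.0062) and *Rpl23* (probe mMC016425, mean -0.43, adjusted p = 0.0089) came next, at -0.30, -0.55 and -0.48 and at -0.23, -0.55 and -0.51. The *Rpl23* probes mMC020634 and mMR028909 were not called there, with means of -0.10 and 0.13, so this call rests on mMC016425 alone. *Rpl23*, at the face between the subunits, can also bind Mdm2 and so restrain it from degrading p53. *Rpl41* was -0.35, -0.24 and -0.33 (mean -0.31, adjusted p = 0.010), *Rps21* -0.21, -0.31 and -0.25 (mean -0.26, adjusted p = 0.013) and *Rpl8* -0.23, -0.17 and -0.27 (mean -0.22, adjusted p = 0.041). Leaving out replicate 1, 2 or 3 gave 5, 4 and 3 lower members, and *Rps9* and *Rps27l* were called each time. With this comparison fitted alone 3 were called, and with array weights, a setting that also used a robust estimate of the spread, 15. SAM called 1 of 29 members (3.45%), beside 3.54% of all probes, so by that method the share of members was that of the array. With a ratio of at least 1.5-fold added to the rule, *Rpl3l* alone was called, beside 1.79% of all probes higher and 0.897% lower.

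At the end of the oxygen period, 4 genes of the small subunit and 1 of the large subunit were called higher in OIR retina. In P12-O/P12-N, 6 of 30 member probes, of these 5 genes, were called higher and 0 lower, beside 3.2% and 3.88% of all 16516 probes. Their mean ratios were 1.19-fold to 1.28-fold. The member median was 0.10, beside -0.00 for all probes, and the medians of the single arrays were 0.14, 0.09 and 0.10. Above 0 on every array were 16 of 30 probes (53.3%), beside 24.3% of all probes. The calls were 5 of 11 probes in the small subunit, with a median of 0.22, and 1 of 19 in the large subunit, with a median of 0.03. This difference between subunits was not tested, nor was that between this comparison and P9-N/P30-N.

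*Rps27* was 0.45, 0.29 and 0.27 at P12 (mean 0.34, SE 0.062, adjusted p = 0.0099). *Rps21* was 0.37, 0.30 and 0.29 (mean 0.32, SE 0.057, adjusted p = 0.0083). Replicate 1 was the highest array for both genes. *Rps3* was 0.21, 0.36 and 0.35 with probe mMR030409 (mean 0.31, adjusted p = 0.036) and 0.23, 0.25 and 0.31 with probe mMC019413 (mean 0.27, adjusted p = 0.023). *Rps27l* was 0.39, 0.14 and 0.22 (mean 0.25, adjusted p = 0.037). *Rpl23* was 0.41, 0.23 and 0.44 with probe mMC020634 (mean 0.36, adjusted p = 0.014), the single call in the large subunit. The other 2 probes of *Rpl23* had means below 0 at P12. All 18 of these values were above 0. The largest mean was that of *Rpl3l*, at 0.57, 0.42 and 0.83, but its 0.61 (SE 0.21) was not called (adjusted p = 0.093).

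The calls at P12 were the least firm of the 3 comparisons with calls. Leaving out replicate 1 gave 0 members called, leaving out replicate 2 gave 4 and leaving out replicate 3 gave 2, and no member was called in all 3 cases. With P12-O/P12-N fitted alone, 0 were called, with adjusted p of 0.10 to 0.17 for the 6 probes, and SAM called 0 of 30, beside 0.477% of all probes. With the probes of a gene averaged, 4 genes were called higher, and *Rpl23* was not among them. The 1.5-fold rule left 0 members in either direction, beside 0.454% of all probes higher and 0.817% lower. The 6 probes called at P12 were all called higher in P9-N/P30-N too, where they made up 35.3% of the 17 called. Of all 487 probes higher at P12 and tested in both comparisons, 237 (48.7%) were higher in P9-N/P30-N too, and these made up 9.8% of the 2418 higher there.

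**Figure D3:**
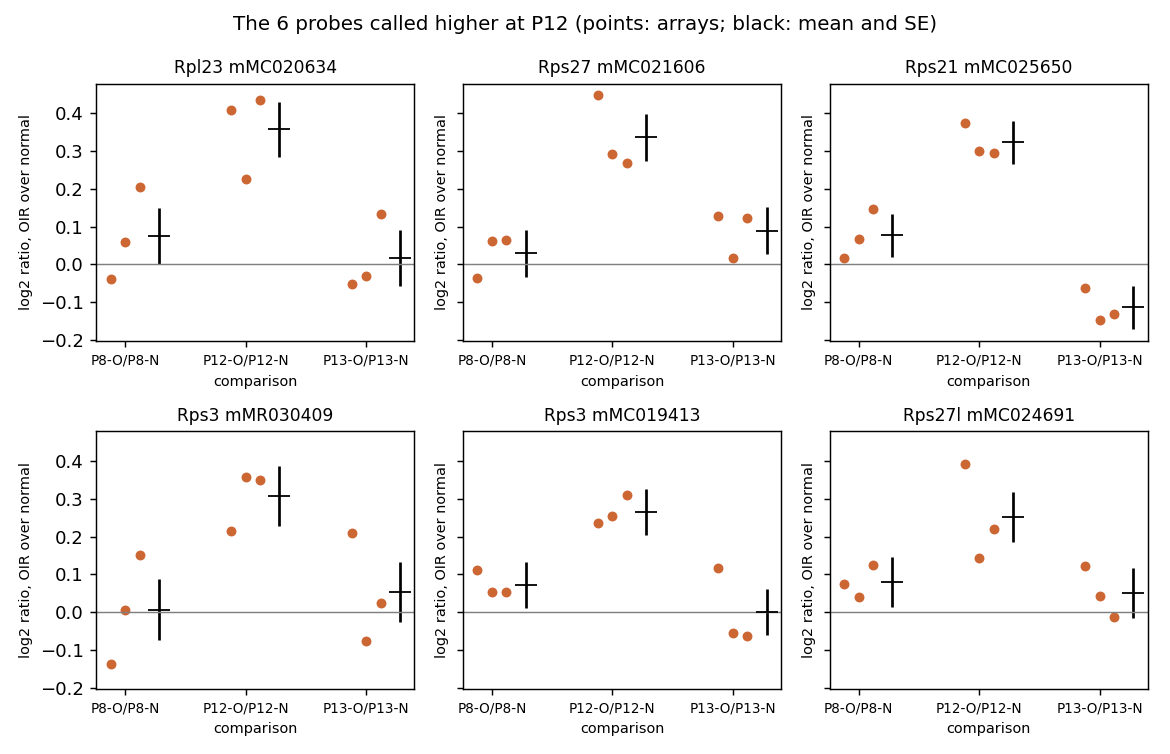
Log2 ratio of OIR over normal retina on each array (orange points) at P8, P12 and P13, with the model's mean and SE (black), for the 6 probes called higher at P12. The probes were chosen by their P12 values, all 18 of which are above 0; the P8 values range from -0.14 to 0.21 and the P13 values from -0.15 to 0.21.

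After 1 day in oxygen, and again 1 day after its end, the members as a group were close to 0. In P8-O/P8-N, limma called 0 of 29 probes higher or lower, beside 0.205% and 0.432% of all 13659 probes, and 1 member had an unadjusted p under 0.05, beside 11.1% of all probes. The median was -0.01, and -0.06, 0.00 and 0.06 on the single arrays. Without P8-O/P8-N replicate 1 the median was 0.04. In P13-O/P13-N, likewise, 0 of 29 were called in either direction, beside 0.963% and 0.547% of all 14436 probes, and 0 had an unadjusted p under 0.05, beside 12.2% of all probes. The median was -0.00, with -0.03, -0.04 and 0.04 on the arrays. SAM called 0 of 28 members in both, beside 0.109% of all probes at P8 and 0.371% at P13. The median SD of a member over the 3 arrays was 0.144 at P8, 0.117 at P12 and 0.0914 at P13.

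Single probes were far from 0 at P8 on 1 array. *Rpl38*, a large-subunit protein whose loss in mice disturbs the translation of Hox mRNAs, was -1.36, -0.22 and -0.11 with probe mMR028340 and -0.96, -0.09 and 0.14 with probe mMC014630. A probe of *Rpl23*, mMR028909, was -1.52, -0.26 and 0.34. In each case P8-O/P8-N replicate 1 was the low array and the other 2 were near 0 or mixed in sign, and without that array there were still 0 calls at P8. *Rpl38* also varied at P12, where mMR028340 was 0.83, -0.00 and -0.80. That probe and mMC014630 were called in no comparison.

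Of the 29 members tested for a difference between time points, *Rps21* alone passed, in 1 of the 3 differences. The P8 arrays gave 0.02, 0.07 and 0.15, those of P12 gave 0.37, 0.30 and 0.29, and those of P13 gave -0.06, -0.15 and -0.13. The P12 and P13 arrays did not overlap. The ratio at P13 minus that at P12 was -0.44 (adjusted p = 0.015 in limma), and 1 of 29 members (3.45%) passed this test, beside 2.55% of all probes, so the share of members was near that of the array. This call was lost without P12-O/P12-N replicate 1 (adjusted p = 0.063) or P13-O/P13-N replicate 2 (adjusted p = 0.076). Over the members, the median difference between P13 and P12 was -0.09, and 23 of 29 were below 0. Between P12 and P8, 26 of 29 were above 0 with a median of 0.16, and 0 passed, beside 0.0369% of all probes, while 5 had an unadjusted p under 0.05. The largest of these p-values in limma, 0.043 for *Rps3* probe mMC019413, ranked only 1781st among all 13566 probes tested. For the differences, the shares of all probes at this limit or on 1 side of 0 were not counted. Such counts therefore describe the members only. Without P8-O/P8-N replicate 1, 22 of 28 were above 0 with a median of 0.11, 0 passed and 3 had an unadjusted p under 0.05. For P13 minus P8 the count was 0 of 29, beside 1.5%, with a median of 0.04 and 2 at an unadjusted p under 0.05. Without that array it was 0 of 28, with a median of -0.02 and 1 at an unadjusted p under 0.05.

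**Figure D4:**
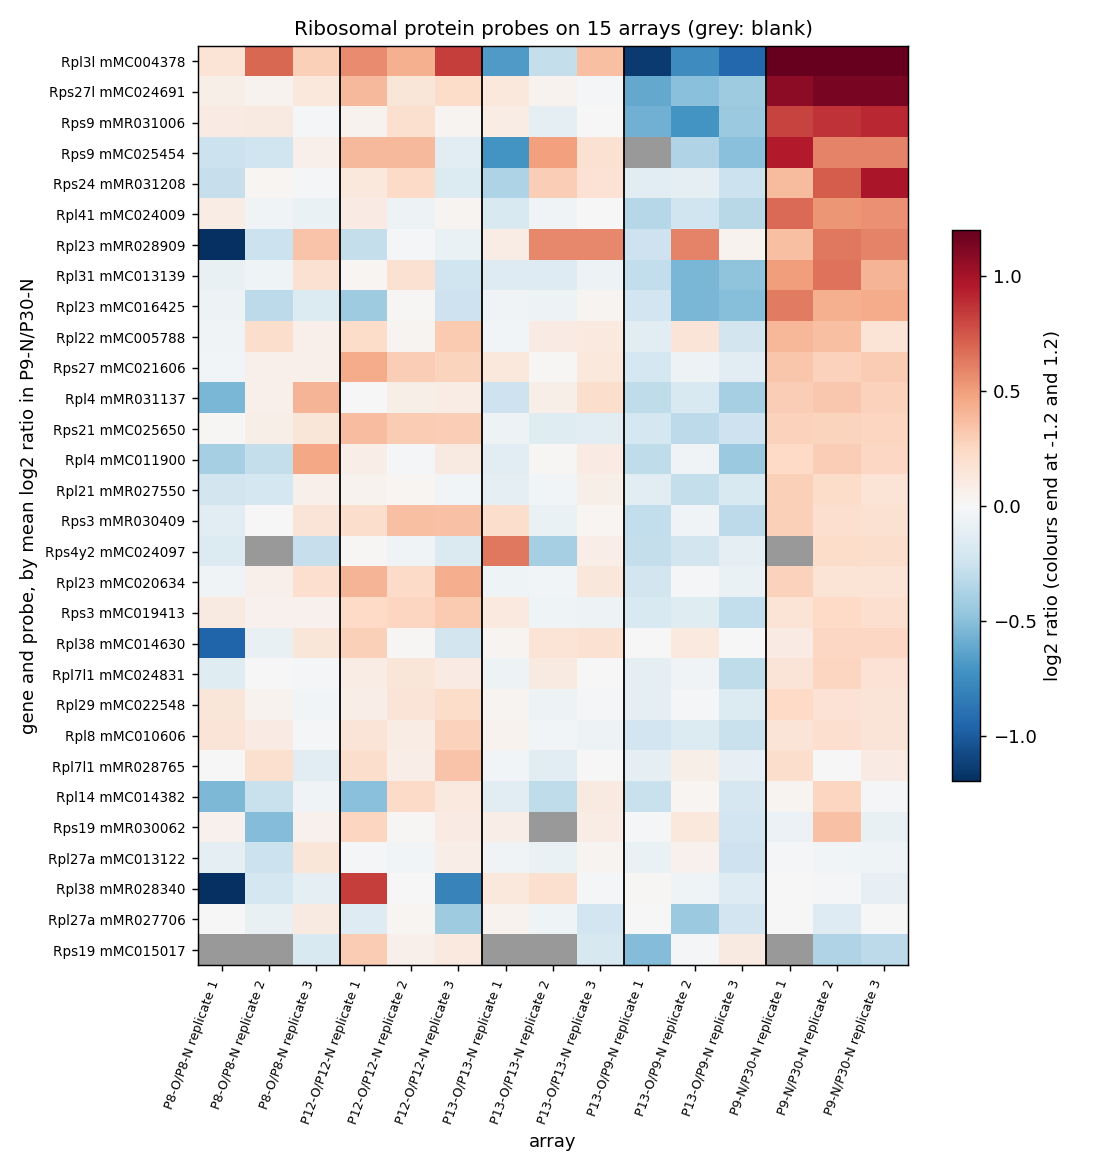
Log2 ratios of the 30 tested member probes (rows, ordered by their mean in P9-N/P30-N) on the 15 arrays (columns; black lines separate the comparisons). Red is above 0, blue below 0 and grey blank; colours end at -1.2 and 1.2. P9-N/P30-N is red in most rows and P13-O/P9-N blue in most rows, and P8-O/P8-N replicate 1 holds the darkest blue cells of its comparison.

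Several genes had probes that did not give the same call. *Rpl23* had 3: in P9-N/P30-N mMC016425 was 0.62, 0.42 and 0.45 (mean 0.50, adjusted p = 0.00075) and mMC020634 was 0.28, 0.17 and 0.17 (mean 0.20, adjusted p = 0.047), while mMR028909 had a mean of 0.53 with no call (SE 0.25, adjusted p = 0.12). At P12, mMC020634 was called higher and mMC016425 was -0.42, 0.01 and -0.25 (mean -0.22, adjusted p = 0.16). The third probe, mMR028909, was -0.29, -0.02 and -0.08 there, a mean of -0.13. At P12, then, 1 probe was above 0 and the other 2 below, and the average over all 3 was 0.00 (adjusted p = 0.99). Which of them reports the functional transcript was not tested. *Rpl7l1*, a paralog of *Rpl7* that works in ribosome assembly, was called in P9-N/P30-N with mMC024831 and not with mMR028765 (mean 0.10, adjusted p = 0.36). *Rps9* was lower in P13-O/P9-N with both probes, but mMC025454, blank on replicate 1, had a mean of -0.43 with no call (adjusted p = 0.31). In all, 12 of the 30 tested probes were called in no comparison.

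Other genes of translation were counted from lists that share some genes. A gene counted as higher when at least 1 of its probes was called higher and none lower, and as lower in the reverse case. In P9-N/P30-N, 14 of 21 ribosomal protein genes were higher and 0 lower (66.7%, median 0.27). Other TOP mRNAs followed with 8 of 15 higher and 0 lower (median 0.29). The mitochondrial ribosomal proteins, which build a separate ribosome, had 26 of 57 higher and 2 lower (median 0.24), and the initiation factors 21 of 46 higher and 0 lower (median 0.20). Over all genes with a symbol, 19.8% were higher and 17.7% lower. Factors of ribosome assembly had 6 of 29 higher and 1 lower (median 0.12), RNA polymerase I subunits and regulators 4 of 20 higher and 0 lower (median 0.04), and elongation and release factors 3 of 11 higher and 1 lower (median 0.08).

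The genes named from these lists are among those with the largest called ratios. Here and below, the value of a named gene is that of its called probe with the largest ratio. The list medians, in contrast, average the probes of a gene. *Eif4a1*, the helicase that unwinds mRNA for the small subunit, was 0.99 in P9-N/P30-N (adjusted p = 3.72e-06). *Eef1b2*, which exchanges the nucleotide on the elongation factor eEF1A, was 0.64 (adjusted p = 7.84e-05), whereas *Eef1a2*, the eEF1A form of neurons and muscle, was -1.01 (adjusted p = 9.77e-06). *Btf3* and *Hnrnpa1*, both TOP mRNAs, were 0.53 and 0.80. The mitochondrial *Mrpl49* was 0.58 and *Mrpl48* was -0.64. *Mycl1*, now named *Mycl* and a member of the Myc family that drives ribosome production, was 2.39 (adjusted p = 3.09e-08), above every ribosomal protein probe.

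The same 7 lists were counted in the other 2 comparisons with calls. In P13-O/P9-N, 8 of 21 ribosomal protein genes were lower and 0 higher, beside 3 of 15 TOP mRNAs lower and 1 higher, 7 of 61 mitochondrial ribosomal proteins lower and 0 higher, and 5 of 50 initiation factors lower and 0 higher. Ribosome assembly had 2 of 33 lower and 0 higher, RNA polymerase I and regulators 2 of 23 lower and 1 higher, and elongation and release factors 2 of 11 lower and 2 higher. All genes had 4.70% lower and 5.75% higher. *Mycl1* was -1.43 and *Eef1a2* 0.61. In P12-O/P12-N, 5 of 21 ribosomal protein genes, 2 of 15 TOP mRNAs, 6 of 61 mitochondrial ribosomal proteins and 9 of 50 initiation factors were higher and 0 of each were lower, beside 3.36% higher and 4.86% lower of all genes. Ribosome assembly had 2 of 33 higher and 1 lower, RNA polymerase I and regulators 2 of 21 higher and 0 lower, and elongation and release factors 0 of 11 higher and 1 lower. *Mrps28* at 0.42, *Eif5* at 0.56 and *Mycl1* at 0.58 were among those higher, and *Eef1a2* was -0.64. In P8-O/P8-N, 2 of 14 TOP mRNAs were higher and 0 lower, beside 0.237% higher and 0.518% lower of all genes. They were *Eif4b* at 0.89, also an initiation factor, and *Eef2* at 0.77, also an elongation factor. In P13-O/P13-N, 1 of 15 TOP mRNAs was higher, *Eef2* at 0.70, beside 1.11% higher and 0.70% lower of all genes. These *Eef2* values are of 1 probe. With the probes of a gene averaged, no elongation or release factor exceeded 0.51 in P8-O/P8-N or 0.49 in P13-O/P13-N. No other gene of the 7 lists was called in P8-O/P8-N or P13-O/P13-N.

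**Figure D5:**
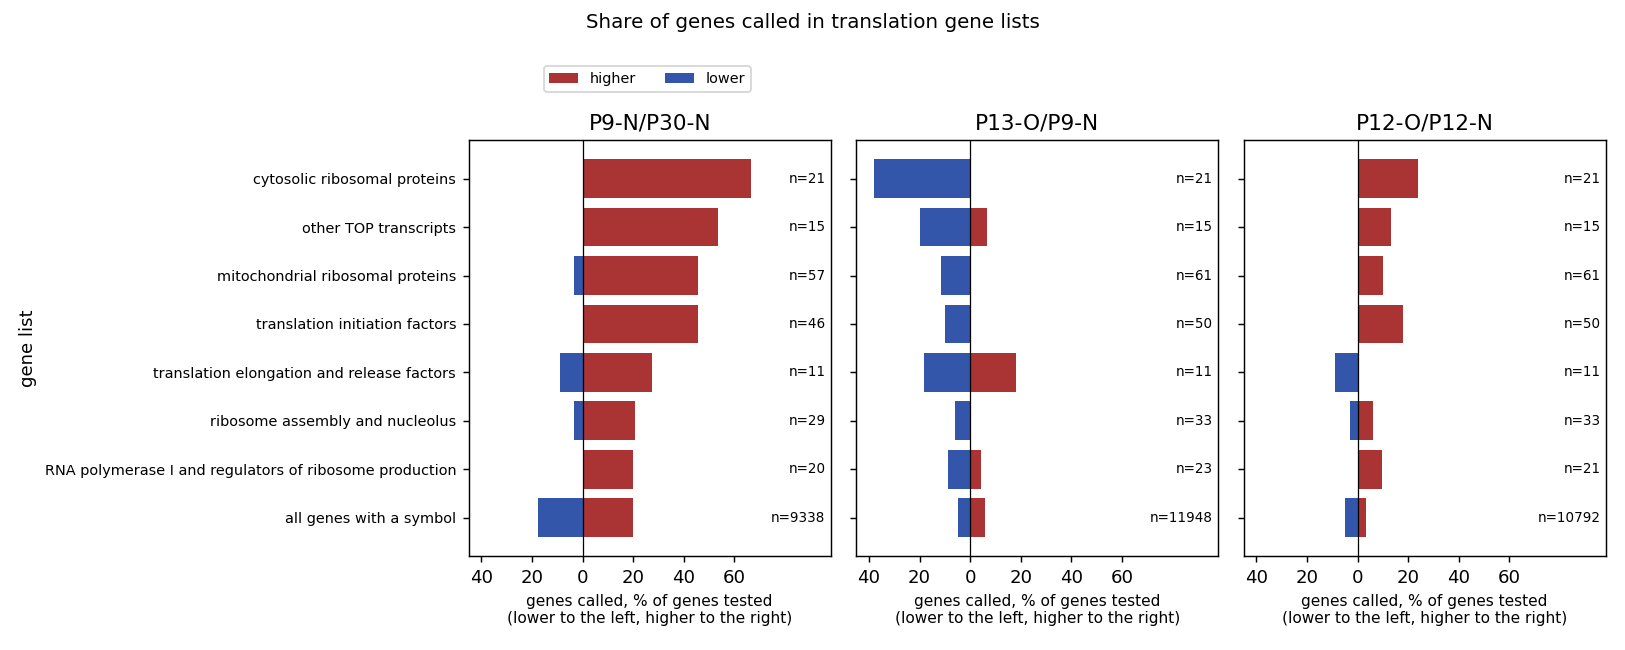
Percent of the tested genes of each list called higher (red, to the right) or lower (blue, to the left) in P9-N/P30-N, P13-O/P9-N and P12-O/P12-N; n is the number of genes tested. The cytosolic ribosomal proteins are at 66.7% higher on the left, 38.1% lower in the middle and 23.8% higher on the right, beside all genes with a symbol at the bottom.

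Markers of retinal cell types moved with age and oxygen beside these values. In P9-N/P30-N, 5 of 5 rod markers were lower (median -0.80, lowest *Gnat1*, rod transducin, at -3.25), 3 of 3 cone markers were lower (median -2.05), and 2 of 5 markers of dividing cells were higher (median 0.49). Endothelial markers had 3 of 4 higher (median 0.36), pigment epithelium markers 2 of 3 higher (median 0.83), and lens markers 2 of 4 lower (median -1.26). Of 4 markers of Mueller glia, 2 were higher and 2 lower. Ganglion cell markers had 1 of 4 higher and 1 lower, bipolar cell markers 1 of 2 lower and red blood cell markers 1 of 2 higher. In P13-O/P9-N, 4 of 5 rod markers (median 0.66), 2 of 3 cone markers (median 0.42) and 2 of 4 Mueller glia markers (median 0.47) were higher, 1 of 4 endothelial markers was lower, and 0 of 7 markers of dividing cells were called. Also higher there were 1 of 2 bipolar cell markers (*Pcp2*, 0.41) and 1 of 4 ganglion cell markers (*Thy1*, 0.43). At P12, 4 of 4 endothelial markers were lower in OIR retina (median -0.73), 2 of 5 rod markers and 1 of 3 cone markers were lower, and 0 of 8 markers of dividing cells were called. The lens marker *Cryba1* was higher at P12, at 1.12. Endothelial markers had 2 of 4 lower in P8-O/P8-N (median -0.43) and 2 of 4 lower in P13-O/P13-N (median -0.40). Of the 4 Mueller glia markers, 1 was lower in P8-O/P8-N, and 1 was higher and 1 lower in P13-O/P13-N. Markers of dividing cells had 1 of 7 higher in P13-O/P13-N. No other marker was called in these comparisons. On single arrays the median of the rod markers ranged from -0.85 to -0.70 in P9-N/P30-N and from 0.59 to 0.75 in P13-O/P9-N, and that of the endothelial markers at P12 from -0.82 to -0.59. Their part in the ribosomal protein results was not tested.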

How the data were processed

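Pools of total RNA from mouse neural retina were hybridised to Phalanx mouse whole-genome arrays. The values are log2 ratios deposited by the authors as normalized, and each column is called an array here. The methods describe dye-switched replicates for the comparisons other than P13-O/P9-N, which they do not list. The normalization, background correction, way of joining the dye orientations and rule for blanks are not given in the sources used here. The means of the arrays lay near 0. Direction was set from the ratios printed in the study for genes it names, and at P12 from genes it names as lower, with no ratio (all 24 values examined in 4 comparisons had that sign), so P9-N/P30-N was inverted. For P13-O/P9-N it came from the channel order in the labels, under which 5 of 5 rod markers were above 0.

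Probe symbols came from the platform annotation, and positions and promoter windows from RefSeq. A probe was tested with values on at least 2 of 3 arrays. All 15 arrays entered 1 limma 3.58.1 model (R 4.3.3) with 1 coefficient for each comparison, tested against 0; p was adjusted by Benjamini-Hochberg over all probes tested in a comparison and called under 0.05, with no fold cutoff. In the gene lists, medians are over the averages of each gene's probes. Figures and counts were made in Python 3.11.15 with matplotlib 3.10.9. The procedure was tested on simulated data. The number of arrays limits the precision.

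The members and lists were chosen with earlier results of these data known. Array values are given for up to 8 called members at each end of a comparison with 1 sign on all arrays, paralog pairs, genes whose probes differ in sign or call, and members called by a difference between comparisons. The motifs, and the description of *Rpl38*, *Rpl4* and *Rpl8*, were chosen after the values or sequences were seen. Alternatives were a separate fit of each comparison, SAM at a false discovery rate of 1%, a 1.5-fold cutoff and an adjusted p under 0.01. Further alternatives were other centring and scaling, array weights, complete probes, averages per gene, a replicate block and leaving out each array. The setting named array weights also used limma's robust estimate of the spread, and the effects of each cannot be told apart. Equal replicate numbers in 2 comparisons were not treated as pairs.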

Additional observations from a re-analysis of the deposited data

Results flagged for a closer look

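*Rps21*, a protein of the small ribosomal subunit, had a different ratio of OIR over normal retina at P13 than at P12, by a test of the difference itself: -0.44 on the log2 scale (P13-O/P13-N minus P12-O/P12-N, limma, adjusted p = 0.015), with all 3 P12 arrays above 0 and all 3 P13 arrays below 0. It was the 1 member of 29 (3.45%) that passed, beside 2.55% of all probes, a share near that of the array. Over the alternatives run for it, its adjusted p ranged from 0.0022 to 0.076, and it was lost in 2 of 11, each of which left out 1 array. It did not reach the 1.5-fold cutoff or an adjusted p of 0.01. With array weights 5 members passed.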

How the results depend on the processing

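None of the 32 calls of single members, the difference of *Rps21* included, changed sign under median centring, equal spread of the arrays, array weights, complete probes, the replicate block, a separate fit or leaving out an array. Of these calls, 13 of 31 were lost in a separate fit of each comparison, 9 of 32 at equal spread, 3 with median centring, 4 with the replicate block and 0 of 32 with array weights, and 46 of 99 when 1 array was left out. In P9-N/P30-N 9 of 17 members stayed called whichever of its arrays was left out, in P13-O/P9-N 2 of 8 and in P12-O/P12-N 0 of 6.

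Counts that moved by more than 1.5 times were these. In P12-O/P12-N, 6 members were higher, but 0 in a separate fit, 0 with SAM, 0 with the 1.5-fold cutoff, 2 at an adjusted p under 0.01 and 0 to 4 without 1 array. For P13-O/P9-N, 8 were lower, but 3 in a separate fit, 1 with SAM, 1 with the 1.5-fold cutoff, 4 at an adjusted p under 0.01, 15 with array weights and 3 to 5 without 1 array. In P9-N/P30-N, 17 were higher, but 9 with SAM, 6 with the 1.5-fold cutoff, 10 at an adjusted p under 0.01, 9 with equal spread of the arrays and 10 to 11 without 1 array, and 1 was lower in a separate fit and 1 with array weights, where 0 had been. In P8-O/P8-N, 1 was lower with array weights. For P13 minus P12, 1 member differed, but 0 with the 1.5-fold cutoff or at an adjusted p under 0.01, 5 with array weights, 3 over complete probes and 0 to 1 without 1 array, and for P13 minus P8, 2 differed with array weights. The member median of P9-N/P30-N was 0.16 at equal spread and 0.27 averaged per gene, and that of P12-O/P12-N 0.14 averaged per gene. The cause of these changes was not tested, other than that leaving out an array leaves fewer values and the stricter rules keep fewer probes.

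With the replicate number as a block, 4 members were higher at P12, 7 lower in P13-O/P9-N and 17 higher in P9-N/P30-N, and 1 differed between P13 and P12. The numbers share a name only: deviations of arrays with the same number correlated at -0.15 to 0.18 over 30 pairs. Without P8-O/P8-N replicate 1, an alternative chosen after seeing the data, the count was 20 in P9-N/P30-N and unchanged in the other comparisons outside P8 and in P13 minus P12; the differences from P8 had 0 calls with and without it. SAM and the stricter rules were not computed for single members. The 3 arrays of a comparison, the blanks and possible cross-hybridisation of gene copies limit what these values show.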
